A study of Mus musculus with 118 samples.

Results

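A set of 8 potassium channel genes, among 23998 gene symbols in the count table, was followed in single SOM+ interneurons of the mouse neocortex. They are the Kir3 genes Kcnj3, Kcnj6 and Kcnj9 and the two-pore domain genes Kcnk1, Kcnk2, Kcnk3, Kcnk9 and Kcnk10. All 8 had counts in at least 1 cell. The cells were labelled neurons of adult SOM-Cre/Ai9 mice, in which Cre driven from the somatostatin gene switches on the red marker tdTomato, so that cells that only once expressed somatostatin are labelled too. The labels give no treatment, and the groups differ in cortical area (primary visual, V1, or primary somatosensory, S1) and layer (L4 or L5). Each cell was recorded by patch clamp in a slice, its content was drawn into the pipette, and its RNA was sequenced (Patch-seq). The kept cells numbered 42 of 44 sequenced ones in V1 L4 and 34 of 39 in S1 L4, and in L5 17 of 19 for V1 and 16 of 16 for S1. A cell was kept if it had at least 1500 genes with a count, if its Slc17a7 count did not exceed those of Gad1 and Gad2 added up, and if Sst was read at all.

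Both families set the resting state of a neuron. Kir3 (GIRK) channels are tetramers opened by the beta-gamma subunits of Gi/o proteins, and so carry the slow inhibition that GABA-B, opioid, adenosine, somatostatin and other receptors evoke. GIRK1 (Kcnj3) does not form working channels at the surface by itself and pairs with GIRK2 (Kcnj6) or GIRK3 (Kcnj9). Two-pore domain channels pass the background potassium current that holds the membrane negative and sets the input resistance. TWIK-1 (Kcnk1) is a weakly conducting member, the TREK channels (Kcnk2 and Kcnk10) respond to stretch, lipids, heat and volatile anesthetics, and the TASK channels (Kcnk3 and Kcnk9) are closed by extracellular acid and by Gq-coupled receptors.

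No animal is given for any cell. Each combination of area and layer therefore stands for 1 sample, and neither p-values nor standard errors were computed over cells. Cells whose labels carry the same date were treated as recorded on 1 day, which gave 9 days in 2 series, days 1 to 6 and 7 to 9, and all 33 kept L5 cells belonged to the first series. Days may share an animal. The total count on genes was between 97904 and 3295232 per kept cell. A kept cell had 6383 ± 1632 genes with a count (SD over the kept cells). Gad1 had counts in 100% of the kept cells and Gad2 in 98.2%. The rule for keeping cells used both genes, and Slc17a7 and Sst too, so these do not check identity independently. Of the listed SOM interneuron genes outside that rule, the GABA transporter gene Slc32a1 had counts in 92.7%, Satb1 in 93.6% and Sox6 in 87.2%. Elfn1 had counts in 86.2% and Lhx6 in 80.7%. Of the 7 astrocyte genes, Aldoc had counts in 71 cells, S100b in 55, Aldh1l1 in 21, Slc1a3 in 16, Gja1 in 15, Aqp4 in 7 and Gfap in 5. The glutamatergic marker Slc17a7 had counts in 22 cells, the microglia gene C1qb in 54 and the myelin gene Mbp in 85.

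Detection separated the 8 genes into common, intermediate and rare ones. At least 1 count of Kcnk1 was found in 86 of the kept cells (78.9%, exact 95% interval 70.0% to 86.1%). Kcnj9 had counts in 81 cells (74.3%, 65.1% to 82.2%) and Kcnk2 in 73 (67.0%, 57.3% to 75.7%). Kcnj3 and Kcnk3 were read in a smaller share of the cells, with 50 (45.9%, 36.3% to 55.7%) and 48 (44.04%, 34.5% to 53.9%). Kcnj6 was found in 26 cells (23.9%, 16.2% to 32.97%), Kcnk10 in 23 (21.1%, 13.9% to 29.96%) and Kcnk9 in 4 (3.67%, 1.01% to 9.13%). These intervals cover counting error only, since PCR copies were not separated from molecules. Of the cells with a count, 2 of 86 for Kcnk1, 8 of 81 for Kcnj9 and 14 of 73 for Kcnk2 had fewer than 5.

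**Figure D1:**
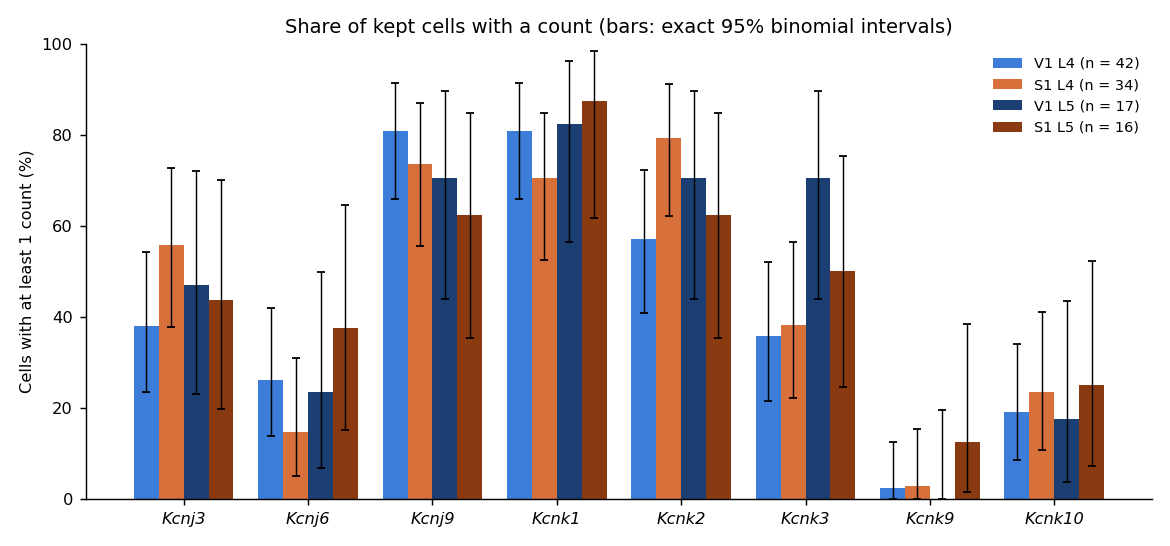
Share of kept cells with at least 1 count of each channel gene in percent (vertical axis) by gene (horizontal axis) and by area and layer (colors), with exact 95% binomial intervals. Kcnk1 and Kcnj9 were read in most cells of each group and Kcnk9 in 4 cells in all, and the intervals of the 4 groups overlapped for each gene.

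Levels of different genes were compared only in RPKM, reads scaled to transcript length and to the reads of the cell, because longer transcripts give more reads. Kcnk1 had the highest mean at 66.7 RPKM (SD over the means of 9 recording days 20.1). Kcnj9 followed at 27.8 RPKM (SD 9.70) and Kcnk2 at 15.2 RPKM (SD 8.75). The gap of 38.9 RPKM between Kcnk1 and Kcnj9 and that of 12.5 RPKM between Kcnj9 and Kcnk2 were larger than the SDs over days of the genes on either side, whereas Kcnk2 lay 7.47 RPKM above the next gene, less than its own SD. Kcnk10 (7.77 RPKM, SD 5.58), Kcnj3 (6.73, SD 2.84), Kcnk3 (6.57, SD 4.01) and Kcnj6 (4.72, SD 3.73) were not separated beyond their spread, and Kcnk9 was last at 1.72 RPKM (SD 2.35). Kcnk1 made up 48.6% of the summed mean RPKM of the 8 genes. It was also the gene with the highest RPKM of the 8 in 60 cells (55.0%, 45.2% to 64.6%), Kcnj9 led in 24 and Kcnk2 in 14, and 1 V1 L5 cell had no count of any of them. Kcnk1 led in 61.9% of V1 and 47.1% of S1 cells of L4, and in 52.9% of V1 and 56.3% of S1 cells of L5, with overlapping intervals (lowest bound 27.8%, highest 80.2%).

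**Figure D2:**
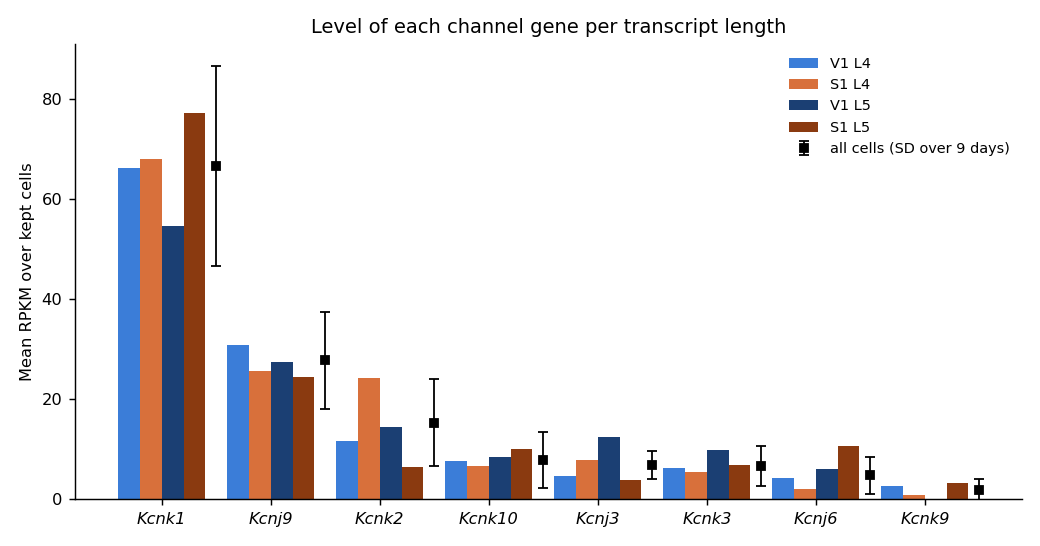
Mean RPKM over kept cells (vertical axis, linear) of each gene in the 4 groups (bars) and over all kept cells (black squares, error bars are the SD over the means of 9 recording days). Kcnk1 stood highest in each group, from 54.7 to 77.4 RPKM, and Kcnj9 second, from 24.4 to 30.9 RPKM.

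A cell held counts of 0 to 8 of the 8 genes, with a median of 4. The median was 3 in V1 L4 and 4 in each of the other groups, and the means (± SD over cells) were 3.40 ± 1.499 for V1 and 3.59 ± 1.52 for S1 in L4, and 3.82 ± 1.63 for V1 and 3.81 ± 1.80 for S1 in L5, so the groups differed by less than their cells did. The number of channel genes followed the number of genes read in the cell (Pearson r = 0.75 over the kept cells, given as a description, since both come from the same library). The 36 cells with the fewest genes, 1978 to 5403, had 2.19 ± 1.21 of the 8 channel genes, and the 37 cells with the most, 7526 to 9200, had 4.89 ± 1.02. Kcnj3 was read in 7 of the former and 28 of the latter, and Kcnk1 in 24 and 34, so a missing count in a cell does not show that the transcript was absent.

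**Figure D3:**
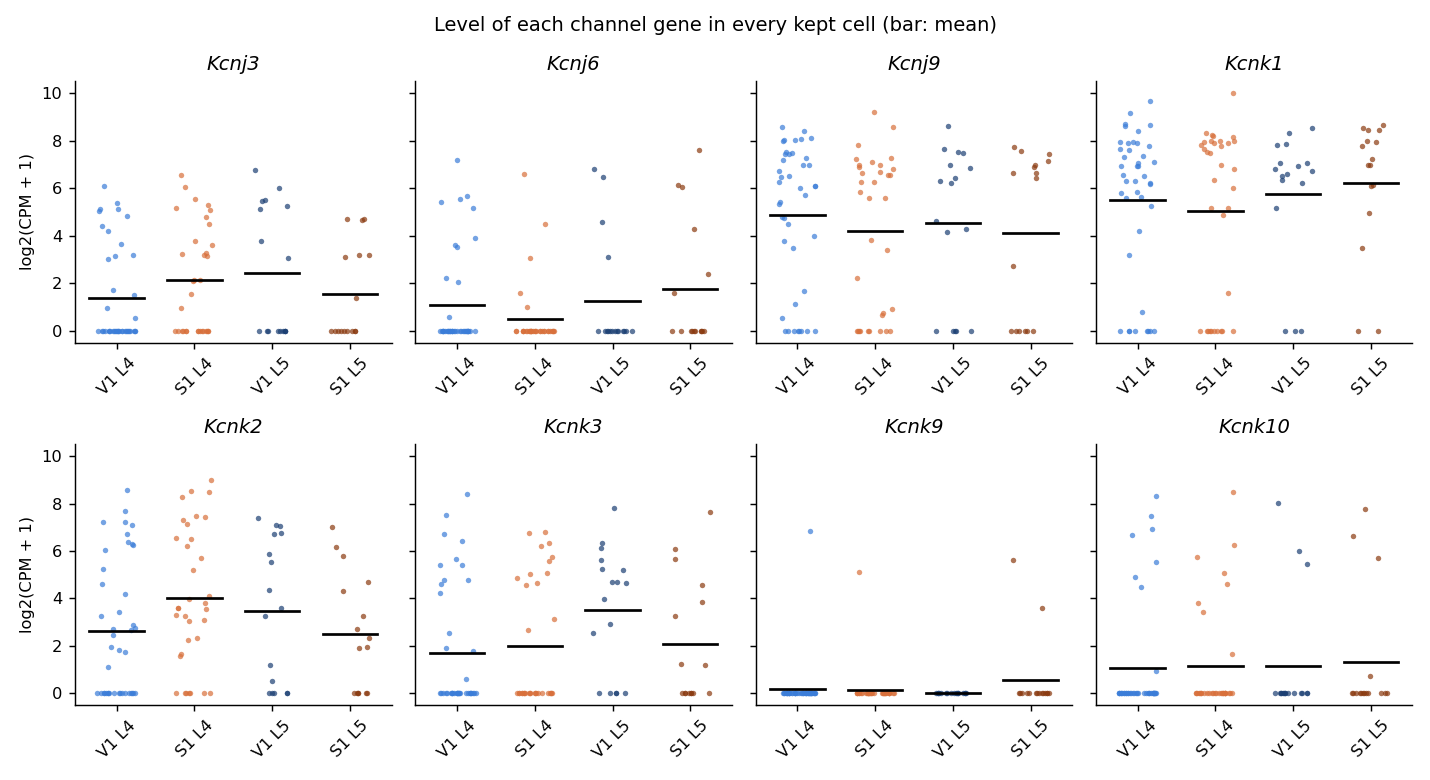
log2(CPM + 1) (vertical axis) of each channel gene in every kept cell (points) by area and layer, with the mean of the group as a bar. Each gene has cells at 0 in each group, and the group means lie between 5.06 and 6.23 for Kcnk1 and between 4.14 and 4.88 for Kcnj9.

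Among the Kir3 genes, Kcnj9, which encodes GIRK3, a subunit known to influence how many channels reach the membrane, was the most common (chr1:172320501-172329318, minus strand, GRCm38). In V1 L4 its level reached from 0 to 384 CPM (counts scaled to the total of the cell) with a median of 65.2, and in S1 L4 from 0 to 591 CPM with a median of 52.1. In L5 the ranges were 0 to 397 CPM (median 74.0) in V1 and 0 to 211 CPM (median 91.8) in S1. All 4 groups overlapped over most of their range. The mean log2(CPM + 1) went down from 4.88 in V1 L4 to 4.54 in V1 L5, 4.199 in S1 L4 and 4.14 in S1 L5, and no neighbours in this order differed by more than the SD over their recording days (0.99 to 2.11). Kcnj10, a Kir channel gene typical of astrocytes, starts 11891 bases away from Kcnj9 on the opposite strand and was read in 18 cells, against 81 for Kcnj9.

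Kcnj3, which encodes GIRK1, the subunit needed for large currents, lies at chr2:55435970-55598145 on the plus strand. Its level was 0 to 67.1 CPM (median 0) in V1 L4 and 0 to 93.1 CPM (median 2.59) in S1 L4. In L5 it was 0 to 107.5 CPM in V1 and 0 to 25.3 CPM in S1, with medians of 0. In each group except S1 L4, fewer cells had a count than lacked one (16 of 42, 8 of 17 and 7 of 16, against 19 of 34 in S1 L4). The order of the means was V1 L5 (2.41), S1 L4 (2.12), S1 L5 (1.56) and V1 L4 (1.38), and the steps of 0.29, 0.56 and 0.18 between neighbours were within the SD over days of 0.64 to 1.17.

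Kcnj6, which encodes GIRK2, the subunit that can form channels by itself, lies at chr16:94748636-94997701 on the minus strand. It was read in 11 of 42 V1 and 5 of 34 S1 cells of L4 and in 4 of 17 V1 and 6 of 16 S1 cells of L5, and its median was 0 CPM in each group. The highest cells had 144.8 CPM (V1) and 95.6 CPM (S1) in L4 and 110.6 CPM (V1) and 193.8 CPM (S1) in L5. Its means were ordered S1 L5 (1.76), V1 L5 (1.23), V1 L4 (1.07) and S1 L4 (0.49), with no neighbours apart by more than their SD over days.

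Kcnj3 was mostly read together with Kcnj9. Of the 50 cells with Kcnj3, 43 (86.0%) also had Kcnj9, while 38 of the 59 cells without Kcnj3 did (64.4%). The cells with Kcnj3 had a mean of 7162 genes with a count and those without it 5723, and the part of this gap in the joint detection was not tested. Kcnj3 with Kcnj9 but without Kcnj6 was the most frequent combination (33 cells), followed by Kcnj9 alone (28 cells) and none of the 3 (18 cells). All 3 were found in 10 cells, Kcnj6 with Kcnj9 in another 10, Kcnj3 with Kcnj6 in 3, Kcnj3 alone in 4 and Kcnj6 alone in 3. Kcnj3 with Kcnj9 made up 9 of 42 V1 and 14 of 34 S1 cells of L4 and 7 of 17 V1 and 3 of 16 S1 cells of L5. The levels of Kcnj3 and Kcnj9 were only weakly related (r = 0.24 over the kept cells), and those of Kcnj3 and Kcnj6 (r = 0.03) and of Kcnj6 and Kcnj9 (r = 0.0014) hardly at all.

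The promoter windows of Kcnj3 and Kcnj9 are shown because these were the Kir3 genes most often read in the same cells. Each is the RefSeq window from 250 bases before to 50 bases after the transcription start (GRCm38.p6), written 5′ to 3′ on the strand of the gene, with CG dinucleotides in capitals.
Kcnj3, chr2:55435720-55436019, plus strand: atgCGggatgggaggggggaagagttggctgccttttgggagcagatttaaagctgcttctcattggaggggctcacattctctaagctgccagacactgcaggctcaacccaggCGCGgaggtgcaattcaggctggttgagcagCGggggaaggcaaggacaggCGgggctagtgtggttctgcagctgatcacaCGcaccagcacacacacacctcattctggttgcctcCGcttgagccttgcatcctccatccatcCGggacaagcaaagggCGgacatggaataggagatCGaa
Kcnj9, chr1:172329273-172329572, minus strand: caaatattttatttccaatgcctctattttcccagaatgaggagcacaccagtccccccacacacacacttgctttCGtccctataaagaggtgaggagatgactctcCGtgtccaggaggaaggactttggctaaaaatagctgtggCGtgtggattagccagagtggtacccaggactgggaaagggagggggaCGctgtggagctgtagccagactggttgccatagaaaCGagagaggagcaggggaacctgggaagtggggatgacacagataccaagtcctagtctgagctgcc
The Kcnj3 window holds 10 CG dinucleotides and that of Kcnj9 holds 5, beside a median of 7 over the 32851 windows of the table, of which 94.6% hold at least 1. The Kcnj9 window has the letters TATAAA once, upstream of the start, and the Kcnj3 window has them on neither strand. TATAAA on either strand is found in 13.6% of all windows and in 1 of the 11 windows of the 6 channel genes in the table. Kcnj6 has windows with 30 and 9 CG dinucleotides, Kcnk1 has 1 window with 10, Kcnk10 has windows with 7 and 18, and Kcnk2 has 4 windows with between 3 and 33. Kcnk3 and Kcnk9 were not matched.

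Among the two-pore genes, Kcnk1 lies at chr8:125995170-126030685 on the plus strand. Its level ranged from 0 to 812 CPM (median 92.3) in V1 L4 and from 0 to 1040.0 CPM (median 118.7) in S1 L4. In L5 it ranged from 0 to 368 CPM (median 104.4) in V1 and from 0 to 411 CPM (median 137.5) in S1. Cells without a count were few in L5, 3 of 17 in V1 and 2 of 16 in S1, and made up 8 of 42 cells in V1 L4 and 10 of 34 in S1 L4. The means were ordered S1 L5 (6.23), V1 L5 (5.77), V1 L4 (5.53) and S1 L4 (5.06) on the log2(CPM + 1) scale, with SDs over days of 1.31 to 2.22 and no step larger than these.

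Kcnk2, the gene of the stretch- and lipid-sensitive channel TREK-1, lies at chr1:189207930-189402273 on the minus strand. In V1 L4 its level was 0 to 375 CPM with a median of 2.69, and in S1 L4 0 to 508 CPM with a median of 11.2. In L5 it was 0 to 165.002 CPM (median 10.9) in V1 and 0 to 129.6 CPM (median 3.46) in S1. The S1 L4 group stood highest, with counts in 27 of 34 cells (79.4%, 62.1% to 91.3%) against 24 of 42 in V1 L4 (57.1%, 40.96% to 72.3%), and its highest cell was above those of the other groups. The means were 4.03 in S1 L4, 3.49 in V1 L5, 2.62 in V1 L4 and 2.51 in S1 L5, and even the gap of 1.51 between the first and the last was within the SD over days of S1 L4 (2.04). Kcnk10, the gene of the related TREK-2, lies at chr12:98429437-98578310 on the minus strand and was read in 8 of 42 V1 and 8 of 34 S1 cells of L4 and in 3 of 17 V1 and 4 of 16 S1 cells of L5. Where it was read it was not low, with a median over its 23 cells of 51.6 CPM and a maximum of 354. Of these 23 cells 18 also had Kcnk2 (78.3%), beside 55 of the 86 cells without Kcnk10 (64.0%), and the levels of the 2 TREK genes were unrelated (r = 0.03).

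Kcnk3, the gene of the acid-sensitive channel TASK-1, lies at chr5:30588170-30625271 on the plus strand. Its level was 0 to 337 CPM in V1 L4 and 0 to 112.1 CPM in S1 L4, with medians of 0. In V1 L5 it was 0 to 221 CPM with a median of 24.1, and in S1 L5 0 to 202 CPM with a median of 0.66. V1 L5 had the largest share of cells with a count, 12 of 17 (70.6%, 44.04% to 89.7%), against 15 of 42 in V1 L4, 13 of 34 in S1 L4 and 8 of 16 in S1 L5. The mean of V1 L5 (3.52) was above the next one, S1 L5 (2.10), by 1.42, more than the SD over days of either group (1.15 and 0.92), and the means of S1 L4 (1.98) and V1 L4 (1.69) followed within their spread. An exon of Gm9899 overlaps Kcnk3 on the opposite strand. The counting was not stated to use strand, so reads of the 2 genes cannot be told apart where they overlap. Gm9899 had 1217 counts in 23 kept cells, 15 of them with Kcnk3, against 2774 counts of Kcnk3.

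Kcnk9, the gene of TASK-3 (chr15:72501089-72546340, minus strand), was read in 1 V1 L4 cell at 114.96 CPM, 1 S1 L4 cell at 33.6 CPM and 2 S1 L5 cells at 11.2 and 47.8 CPM. No count was found in 17 V1 L5 cells, which allows a share of cells with a count of up to 17.6%, or 0.16 CPM over the pooled counts of the group, and does not limit the share of cells that express the gene. Each of the 4 cells also had Kcnk1 and 3 had Kcnk3, which encodes the partner of TASK-3 in mixed TASK channels. Of the two-pore pairs, Kcnk1 and Kcnk3 had the closest levels (r = 0.25, the highest of the 28 pairs of the 8 genes, whose median was 0.04 and whose lowest was -0.09). Kcnk1 was read in 42 of 48 cells with Kcnk3 (87.5%) and in 44 of 61 without it (72.1%). Most cells held more than 1 of the 5 two-pore genes, with 22 cells at 1, 44 at 2, 25 at 3, 11 at 4, 1 at 5 and 6 at 0.

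**Figure D4:**
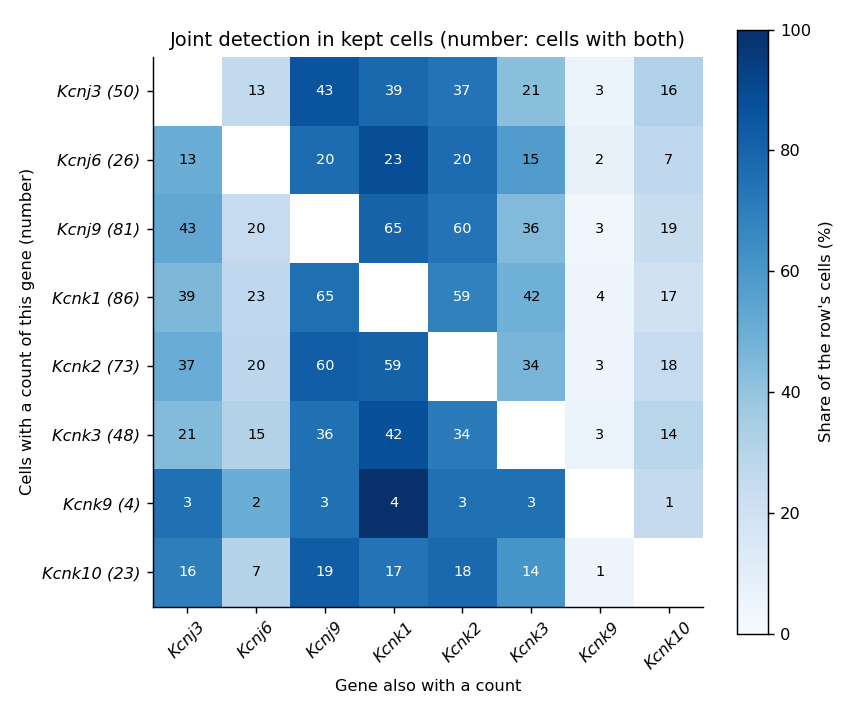
Number of kept cells with counts of both genes, for each pair of channel genes, colored by the share of the cells with the row's gene (number in brackets) that also had the column's gene, in percent. Kcnj9 was found in 43 of 50 cells with Kcnj3, and Kcnk1 in 42 of 48 cells with Kcnk3.

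To compare areas and layers, the difference of the mean log2(CPM + 1) was computed for every gene with at least 32 counts in at least 10 kept cells, which 9993 genes and 7 of the 8 channel genes passed. Kcnk9 did not pass and is given as values. A difference was called when it was at least 1 on the log2 scale over all cells and had the same sign on each day that had 2 or more cells in both groups. Because low values are compressed by the added 1, it understates changes of low genes. The V1 L5 and S1 L5 cells, and the L4 cells of the first series, each enter more than 1 comparison, so the comparisons share cells.

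Between the areas in L4, none of the 7 channel genes was called, beside 3.01% of the 9993 genes. Kcnk2 had the largest difference, 1.40 higher in S1 (mean 4.03 against 2.62 in V1, SD over 5 days 1.96). It was higher in S1 on 4 of 5 days, by 1.17 to 3.42, and lower by 1.86 on day 8, which had 2 S1 cells. Without day 8 it was called with a difference of 1.69, and so was Kcnk1, at a difference of -1.07. Without day 7 the difference of Kcnk2 was 0.68, and without day 9 that of Kcnk1 was -0.17. The other differences over all days were 0.74 for Kcnj3, 0.30 for Kcnk3, 0.07 for Kcnk10, -0.47 for Kcnk1, -0.58 for Kcnj6, -0.68 for Kcnj9 and -0.01 for Kcnk9, each within its SD over days apart from Kcnk9, which was at 0 in both areas on 4 of the 5 days. With each series taken alone, 3 of 7 were called in either, beside 11.6% of all genes in the first series and 20.3% in the second. In the first series (3 days) these were Kcnj3 (1.59), Kcnk2 (1.33) and Kcnk1 (-1.02), and in the second (2 days) Kcnj6 (-1.26), Kcnj9 (-1.54) and Kcnk3 (1.28). Kcnk2 was the gene with a like difference in both, 1.33 and 1.44. In the second series, however, it was not called, at 3.42 on day 7 and -1.86 on day 8. That series also held 7 S1 cells of day 9, from which only S1 cells were kept. Kcnk3 was at -0.72 in the first and 1.28 in the second, and Kcnj3 at 1.59 and -0.10.

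The markers of other cells were not equal between the areas in L4. The 7 oligodendrocyte genes summed to 0 to 9702 CPM per cell (median 644, all 7 with counts) in S1 L4 and to 0 to 3717 CPM (median 156, 6 with counts) in V1 L4. The 7 astrocyte genes summed to 0 to 2757 CPM (median 296, 6 with counts) in S1 L4 and to 0 to 8521 CPM (median 93.8, 7 with counts) in V1 L4. Across the kept cells the r of Kcnk2 was 0.09 with the summed oligodendrocyte genes, 0.03 with the astrocyte genes and 0.06 with the microglia genes. In the cells with no count of Aqp4, Gfap and Gja1, 27 in S1 L4 and 35 in V1 L4, the difference of Kcnk2 was 1.49. That choice of cells used no oligodendrocyte gene and none of the other astrocyte genes. The part of these markers in the values of Kcnk2 was not tested.

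Between the areas in L5, again none of the 7 channel genes was called, where 11.1% of all genes were. Kcnk3 differed most, by -1.42 (mean 2.10 in S1 and 3.52 in V1, SD over 4 days 1.82). The difference lay in days 4 and 5, at -3.23 and -2.76, while days 3 and 6 had 0.19 and 0.10. Kcnk2 had a difference of -0.98, with lower values in S1 on 3 of 4 days, and Kcnj3 had a difference of -0.85, also negative on 3 of 4 days. Kcnk2 was called without day 4 (-1.85) and Kcnj3 without day 5 (-1.65). Without day 3 the differences were -0.20 for Kcnk2 and -0.31 for Kcnj3, and in the cells with no count of Aqp4, Gfap and Gja1 they were -0.16 and -0.44. The others were at 0.52 (Kcnj6), -0.41 (Kcnj9), 0.46 (Kcnk1), 0.16 (Kcnk10) and 0.58 (Kcnk9), within their SD over days. Markers of other cells differed here too. The 7 oligodendrocyte genes, pooled over cells, summed to 731 CPM in S1 L5 (median of cells 322) and to 239 CPM in V1 L5 (median 170.6). Mbp (2.66), the astrocyte gene Slc1a3 (1.76) and Pvalb (1.28), a marker of other interneurons, were called higher in S1 L5 and the microglia gene P2ry12 lower (-2.07). Of the other astrocyte genes past the filter, Aldoc (-0.20) and S100b (-0.49) were lower and Aldh1l1 (0.25) higher, without a call. The median difference of the astrocyte genes past the filter was 0.02. Pooled over cells, the astrocyte list came to 150.3 CPM (V1) and 156.1 CPM (S1), with medians of cells of 81.9 and 123.1 CPM. The 7 microglia genes had pooled sums of 579 CPM for V1 and 144.8 CPM for S1, while the medians of cells, 26.1 and 39.8 CPM, had the opposite order. The part of these markers in the values of the channel genes was not tested.

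**Figure D5:**
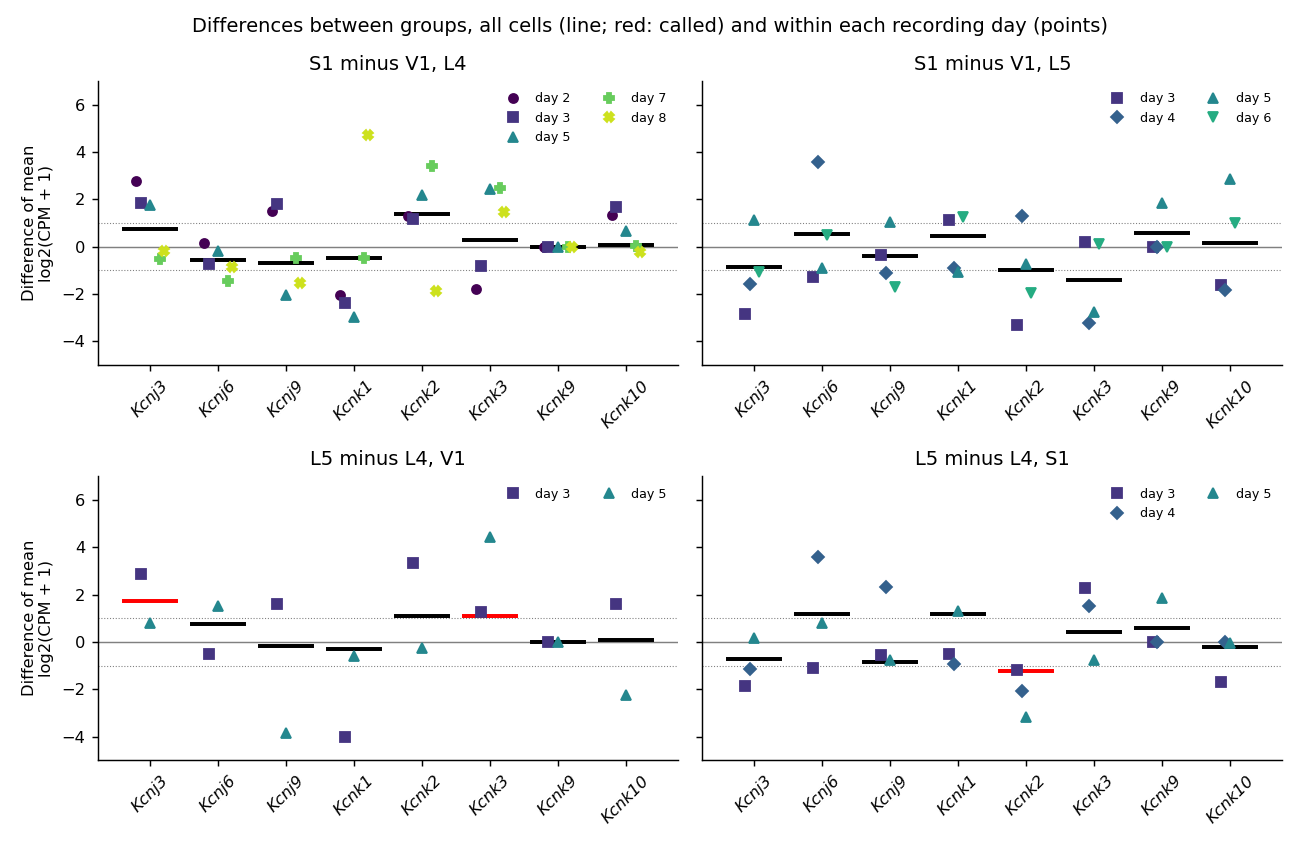
Difference of the mean log2(CPM + 1) (vertical axis) of each channel gene in the 4 comparisons, over all cells (lines, red where called) and within each day that had 2 or more cells in both groups (points). Kcnj3 and Kcnk3 in V1 and Kcnk2 in S1 are the called layer differences, and for most other genes the days fall on both sides of 0.

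Between the layers of V1, within the first series, 2 of 7 channel genes were called, beside 16.2% of all genes, and both were higher in L5, as were 7.46% of all genes. Kcnj3 had counts in 5 of 21 L4 cells (0 to 40.4 CPM) and in 8 of 17 L5 cells (0 to 107.5 CPM), and its mean was 0.66 in L4 and 2.41 in L5. The difference of 1.74 was larger than its SD over 2 days of 1.46, and was 2.86 on day 3 and 0.80 on day 5, when V1 L4 had 2 and 3 cells. Kcnj3 was called without any one of the 6 days (1.16 to 2.004), and at a difference of 1.03 when the 21 L4 cells of the second series, which had a mean of 2.09, were added. Kcnk3 had counts in 9 of 21 L4 cells (0 to 337 CPM) and 12 of 17 L5 cells (0 to 221 CPM), with means of 2.41 and 3.52. The difference of 1.11 did not exceed the SD over days of 2.24, at 1.25 on day 3 and 4.43 on day 5, and it was no longer called without day 1 (0.71), day 4 (0.99) or day 5 (0.43). It was 2.55 without day 2. Kcnk2 differed by 1.09 (3.32 on day 3 and -0.27 on day 5), and was called without day 5 at 1.36. It was 0.25 without day 2 and 0.46 without day 3. Kcnk1 had a difference of -0.30 over all cells and -1.21 without day 2, when it was called. Its direction turned without day 3 (0.9996) and in the cells with no count of Aqp4, Gfap and Gja1 (0.63). The differences of Kcnj6, Kcnj9 and Kcnk10 were 0.77, -0.17 and 0.10, with opposite signs on the 2 days, and Kcnk9 had no count in either layer. In the cells without a count of Aqp4, Gfap and Gja1, the difference of Kcnj3 was 1.35 and that of Kcnk3 0.81. Among the markers, the oligodendrocyte gene Mobp (1.15) and the microglia gene Csf1r (1.17) were called higher in V1 L5. The 7 microglia genes had a median difference of 0.48, with C1qb (-1.15) and Tyrobp (-0.51) lower. Their pooled sums were 579 CPM in V1 L5 and 411 CPM in V1 L4 of the first series, but the medians of cells were 26.1 and 199.1 CPM. The interneuron genes Sox6 (-2.63) and Elfn1 (-1.76) were called lower. Satb1 (0.76) and Lhx6 (0.70) were higher without a call, and the median of the 8 SOM interneuron genes was 0.05. The part of these markers in the result was not tested.

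Between the layers of S1, 1 of 7 channel genes was called, beside 14% of all genes, and it was lower in L5, as were 4.17% of all genes. Kcnk2 had counts in 12 of 16 L4 cells of the first series (0 to 174.8 CPM, median 11.8) and in 10 of 16 L5 cells (0 to 129.6 CPM, median 3.46), so the ranges overlapped. Its mean was 3.73 in L4 and 2.51 in L5. The difference of -1.22 was larger than its SD over 3 days of 1.003, with -1.17, -2.07 and -3.18 on days 3, 4 and 5. It was no longer called without day 5 or day 6 (-0.94 in both cases), or when the S1 L4 cells without an Sst count were added (-0.80), or in the cells with no count of Aqp4, Gfap and Gja1 (-0.62). With the S1 L4 cells of both series it was -1.51. Among the markers, Mbp was called higher in S1 L5 (mean 8.07 against 5.66 in S1 L4) and the interneuron genes Sox6 (-1.97) and Elfn1 (-2.49) lower. Without a call, Slc32a1 (1.27) and Satb1 (1.11) were higher and Lhx6 (-1.24) lower, and the median of the 8 SOM interneuron genes was -0.33. Of the astrocyte list, Aldoc was called lower in S1 L5 as well, with means of 3.50 and 5.70, and the summed list had a median of 123.1 CPM in S1 L5 and 158.1 CPM in S1 L4 of the first series. The part of these markers in the result was not tested. Kcnj6 and Kcnk1 each differed by 1.18, but the days did not share 1 sign. Kcnj6 was lower in L5 on day 3 (-1.10) and higher on days 4 and 5 (3.59 and 0.80). Kcnk1 was lower on days 3 and 4 (-0.50 and -0.94) and higher on day 5 (1.29). The mean of the within-day differences of Kcnk1 was -0.05, of the other sign. Kcnj9 differed by -0.84, Kcnj3 by -0.70, Kcnk9 by 0.58, Kcnk3 by 0.40 and Kcnk10 by -0.21. Kcnj9 was called without day 4 (-1.91), was at -0.44 without day 5 and -0.45 without day 6, and had a mean of the within-day differences of the other sign (0.34). Kcnj3 was called without day 5 (-1.22) and was at -0.25 when the cells without an Sst count were added. The median difference of the 7 genes was -0.21 in S1 and 0.77 in V1, beside 0.24 and 0.10 for all genes tested.

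The other genes of both families were mostly rarer. None of 12 other Kir genes passed the filter, and the 2 with the highest mean log2(CPM + 1) were Kcnj11, a subunit of ATP-sensitive channels (0.71, 19 cells), and Kcnj10 (0.61, 18 cells). Of 9 other two-pore genes, Kcnk12, which encodes the THIK-2 subunit, and Kcnk4, which encodes the mechanosensitive TRAAK, passed. Kcnk12 was read in 65 cells with a mean of 11.5 RPKM, and Kcnk4 in 24 with 4.35 RPKM, and neither was called in a comparison (largest difference 0.68, Kcnk12 between the areas in L5).

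Receptors that act on Kir3 channels through Gi/o proteins were present. Of 20 listed genes 11 passed, led by the GABA-B receptor gene Gabbr1 (95.4% of cells, mean log2(CPM + 1) 7.11) and the nociceptin receptor gene Oprl1 (74 cells, 4.68). None was called between the areas in L4. Between the areas in L5, Gabbr2, the other subunit of the GABA-B receptor, and the cannabinoid receptor gene Cnr1 were called higher in S1 (means 5.16 and 2.96 with SD over days 2.09, and 6.69 and 4.41 with SD 1.04), and the neuropeptide Y receptor gene Npy1r lower (-1.49, SD 1.37). Between the layers, Oprl1 was called lower in V1 L5 (-1.20, SD 3.15), and Cnr1 (5.14, SD 2.33) and the adenosine receptor gene Adora1 (2.25, SD 1.04) higher in S1 L5. The level of Gabbr1 was weakly related to that of Kcnj9 (r = 0.33) and Kcnj3 (r = 0.25) over the kept cells, beside r = 0.44 and 0.41 of the same genes with the number of genes read.

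Of 20 genes of Gi/o proteins and their regulators 19 passed, led by the subunit genes Gnb1 (mean 8.35) and Gnao1 (7.43). Between the layers, 4 of the 19 were called higher in L5 in each area and none lower, beside 7.46% of all genes called higher in V1 L5 and 9.88% in S1 L5. Gnai1, an inhibitory alpha subunit, was higher in L5 by 2.63 in V1 and 2.30 in S1, Gnb4, a beta subunit, by 1.43 and 1.58, and Rgs7, which speeds the shutdown of Gi/o signals, by 1.64 and 2.68. Snx27, a sorting protein that binds Kir3 subunits, was called in V1 (1.64) and Rgs4 in S1 (2.98). Between the areas, Kctd8, an auxiliary subunit of the GABA-B receptor, was lower in S1 L4 (-1.18, SD 2.14), Kctd12, another such subunit, lower in S1 L5 (-1.62, SD 0.81), and Gnai3 higher in S1 L5 (2.56, SD 2.42).

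Gq-coupled receptors, which close TASK and TREK channels, and their effectors had 11 of 12 genes past the filter, among them the phospholipase gene Plcb1 (mean log2(CPM + 1) 6.95). Grm5, a metabotropic glutamate receptor gene, was called lower in S1 L4 than in V1 L4 (-2.68, SD 0.96) and higher in S1 L5 than in S1 L4 (3.01, SD 0.99). The adrenergic receptor gene Adra1a (1.86, SD 0.86) and Plcb1 (1.29, SD 1.55) were also called higher in S1 L5 than in S1 L4. None of this list was called between the layers of V1. Among 4 partners of two-pore channels, 3 passed, led by the 14-3-3 genes Ywhab (9.37) and Ywhaz (8.52), and the anchoring protein gene Akap5 was called lower in S1 L5 than in S1 L4 (-1.78, SD 1.66). The 4 genes of the sodium leak channel complex, which works against the potassium leak, passed, led by Unc80 (5.66) and Unc79 (4.18). In S1, Unc79 was lower in L5 (-1.76, SD 1.5002) and Fam155a higher (1.17, SD 0.71), and none of the 4 was called in the other 3 comparisons.

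No gene followed a channel gene closely from cell to cell. The highest Pearson r of log2(CPM + 1) over the kept cells, among 9992 other genes, was 0.53 for Kcnj9 (with Elp5, then Nt5c2 at 0.49 and Coa3 at 0.48) and 0.51 for Kcnk2 (Cops5, then Ubl7 and Cops6 at 0.45). For Kcnj3 it was 0.49 (A330050F15Rik and Rtkn, then Slmo2 at 0.47), for Kcnk1 0.47 (Tubb4b, then Polr2c and Eif3h at 0.46) and for Kcnj6 0.44 (Trpc4, then Arrdc1 and Nme3 at 0.39). Kcnk3 was at 0.38 (Casc4, then Ifit3 and Bax at 0.37) and Kcnk10 at 0.37 (Tspan33, then Ttc39b at 0.35 and Vezf1 at 0.33). Several of these genes also followed the number of genes read in the cell, Ubl7 with r = 0.67 and Coa3 with r = 0.61. The markers used to tell SOM+ types apart were no closer. The strongest values were 0.28 between Kcnj9 and Calb2 and 0.25 between Kcnj3 and Pvalb, and Sst was between -0.22 (Kcnj3) and 0.02 (Kcnk2).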

How the data were processed

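The authors aligned the reads of each single cell to the mm10 mouse genome with STAR 2.4.2a, per the submitters' notes, and deposited raw counts of reads on genes and a table of RPKM values that the authors computed with rpkmforgenes and RefSeq gene models. Entries that share a symbol were summed. Counts were divided by the total of the cell (CPM) and taken as log2(CPM + 1), and RPKM values served for levels between genes and as an alternative. Total counts lay between 97904 and 3295232 per kept cell, and shares and floors (3 counts for a count of 0) cover counting error only. All columns of cells were matched to labels, and 0 pairs of cells had identical counts. Left out were 4 cells with fewer than 1500 detected genes, 1 glutamatergic cell and 4 cells without an Sst count. A deposited table of cell annotations was not used. Cells are not replicates, so no test was run, and each difference is read against its values within recording days and the share of all genes called by the same rule. Dates in labels were taken as recording days, which was not tested.

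The named genes are the 8 channel genes, the 2 highest and every called gene of each pathway list, and the 3 genes most like each channel gene. The results of 1 listed gene are not reported here. The channel genes and the lists were chosen with earlier results of these data known. The functions were tested on simulated data. Alternatives changed the cell filter, depth, scale, pseudocount, summary, gene filter, call rule, series and days. Coordinates are from GENCODE M21 (GRCm38), in which exons of 6 channel genes overlap an exon of another gene. TMM factors came from edgeR 4.0.16 in R 4.3.3, and the rest was run in Python 3.11.15 with SciPy 1.17.1, pandas 2.3.3 and NumPy 2.4.6, with figures by matplotlib 3.10.9.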

Additional observations from a re-analysis of the deposited data

Results flagged for a closer look

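Channel genes were also read in cells that the comparisons left out. In the 4 S1 L4 cells without an Sst count, with their counts pooled, Kcnk1 was at 308 CPM and Kcnj9 at 250 CPM, with counts in each of the 4 cells, Kcnj6 at 53.2 CPM and Kcnk3 at 32.5 CPM with counts in 3 cells each, and Kcnk2 at 1.82 CPM with 10 counts in 2 cells. All 5 are above the 0.545 CPM that a count of 0 allows there. For 3 genes most of the counts came from 1 cell, 1339 of 1697 for Kcnk1, 843 of 1378 for Kcnj9 and 222 of 293 for Kcnj6. Kcnj3 and Kcnk9 had no count in these cells and Kcnk10 had 1. The kept S1 L4 cells, pooled in the same way, had 83.8 CPM of Kcnk2, 17.7 CPM of Kcnj3, 3.62 CPM of Kcnj6, 18.8 CPM of Kcnk3, 161.5 CPM of Kcnk1 and 91.4 CPM of Kcnj9. The 1 glutamatergic cell, labelled V1 L5, had Kcnj9 at 288 CPM and Kcnk1 at 130 CPM, above the 3.95 CPM that a count of 0 allows, and no count of the other 6 genes. These results are listed because they lie outside the main measurement. The differences from the kept cells were not tested.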

How the results depend on the processing

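No paired analysis was possible because no result comes from a test. Cells of the same recording day were compared within days, and the mean of the within-day differences is one of the alternatives. For S1 against V1 in L4, no channel gene was called, beside 3.01% of all genes. There was 1 with at least 4000 detected genes (4.64% of all genes) and 1 without the condition on days (14.9%). In the first and in the second series alone there were 3 (11.6% and 20.3%). When a recording day was left out there were 0 to 2 (3.17% to 5.81%). In L5, 0 were called, beside 11.1% of all genes. There was 1 without the condition on days (30.6%) and 0 to 1 when a day was left out (18.5% to 20.1%). For the layers of V1, 2 were called, beside 16.2% of all genes. There was 1 with RPKM values (11.5% of all genes) and 1 in the cells without counts of Aqp4, Gfap and Gja1 (15.4%). The latter alternative was chosen after seeing the data. With a pseudocount of 10 there were 0 (6.04%). The number was 3 without the condition on days (32.8%) and 1 to 3 without 1 day (17.4% to 29.3%). The mean of the within-day differences also gave 3 (36.8%), as did at least 4000 detected genes (19.4%), both within 1.5 times the count. For the layers of S1, 1 was called. With cells without an Sst count also kept, 0 were called (13.9% of all genes). RPKM values (10.7%) and a pseudocount of 10 (5.54%) also gave 0, as did the cells without the 3 astrocyte genes (16.6%). Without the condition on days 3 were called (30.8%), and without 1 day 0 to 2 (16.5% to 25.4%). The causes were not tested. The same number of V1 calls under thinning to 250000 reads, 2 beside 19.2% of all genes, is made up of Kcnj3 and Kcnk2, with Kcnk3 at 0.65. Kcnj3 in V1 was called under each alternative except the pseudocount of 10 (0.82), with a condition on days that rested on days 3 and 5 at most. None of the called differences changed sign. The median number of channel genes per cell stayed within 1 SD of its cells in all alternatives, at 3 to 4. The share of cells with Kcnk2 was 54.1% with a minimum of 5 counts, and no other share left its interval. Cells with more genes read had more of the 8 channel genes (r = 0.75).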
